A study of Rattus norvegicus with 6 samples.

Results

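Kainate receptors are glutamate-gated cation channels, and their 5 subunits are encoded by Grik1 to Grik5. The 5 genes were taken from the deposited count table by their symbols, and all 5 were found among its 22601 genes. All 5 passed the filter on low counts and were tested, among 14588 genes in all. The animals were male Sprague Dawley rats, an outbred strain, at 22 months of age (aged) and at 4 months of age (adult). After a water maze test of spatial memory, the ventral hippocampus of 3 aged and 3 adult rats was sequenced, 1 library per rat. No genotype, drug or surgery distinguished the groups in the labels, and the comparison asked how transcript levels in aged rats differed from those in adult rats.

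A functional kainate receptor is a tetramer. GluK1, GluK2 and GluK3, the products of Grik1 to Grik3, can form channels by themselves, whereas GluK4 and GluK5, the products of Grik4 and Grik5, bind kainate with high affinity and need a GluK1, GluK2 or GluK3 partner to reach the surface and conduct. In the hippocampus these receptors are best known from the mossy fibre synapse between dentate granule cells and CA3 pyramidal cells, where they act on both sides of the synapse, and GluK1 is known from interneurons.

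Library totals lay between 12476758 and 15400405 counts in aged rats and between 14637811 and 15689921 counts in adult rats. Of the marker genes looked up, those of dentate granule cells, CA3 and CA1 pyramidal cells and neurons in general were present in every library. Their levels differed between libraries. In CPM (counts scaled to library size, with TMM factors), CA1 markers summed to 757, 687 and 435 in aged rats 1 to 3. In adult rats 1 to 3 they summed to 351, 789 and 647, although Dcn and Fibcd1 were not lowest in adult rat 1. Npy, a neuropeptide of interneurons, had a count of 0 in all 6 libraries, as did Otx2 of choroid plexus. Whether these counts of 0 reflect expression or the counting annotation, which no source used here names, was not tested. The other 9 interneuron markers were detected. Choroid plexus markers summed to 2155 CPM in adult rat 1 and to between 9.85 and 74.5 CPM in the other 5 libraries. The summed level of 8 mature oligodendrocyte markers lay between 6840 and 9152 CPM in aged rats, against 11620 to 17506 CPM in adult rats, and did not overlap. Liver markers differed between libraries of each age, at 29.6 to 270.2 CPM in aged and 31.0 to 546.9 CPM in adult rats. The part of these differences in any result below was not tested.

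No difference between aged and adult ventral hippocampus was detected for any of the 5 subunit transcripts. At an adjusted p under 0.05 (edgeR quasi-likelihood, Benjamini-Hochberg over all genes), 0 of 5 were called, where the share over all genes was 0%. An unadjusted p under 0.05 was also seen for 0 of 5, against 3.45% of all genes, and DESeq2 called 0 of 5, against 32 of the 16727 genes (0.191%) to which it gave an adjusted p. The values of the 3 aged and 3 adult rats overlapped for all 5 subunits, whereas the groups did not overlap for 7.56% of all genes. The estimated log2 fold changes were between 0.02 and 0.16, with a median of 0.08 over the 5 subunits and of -0.0022 over all genes tested. All 5 estimates were above 0, as were 49.5% of those of all genes. The sign of 4 of them turned when single libraries were left out, as given with each gene. In bulk tissue, fewer cells of a type and less RNA per cell cannot be told apart.

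**Figure D1:**
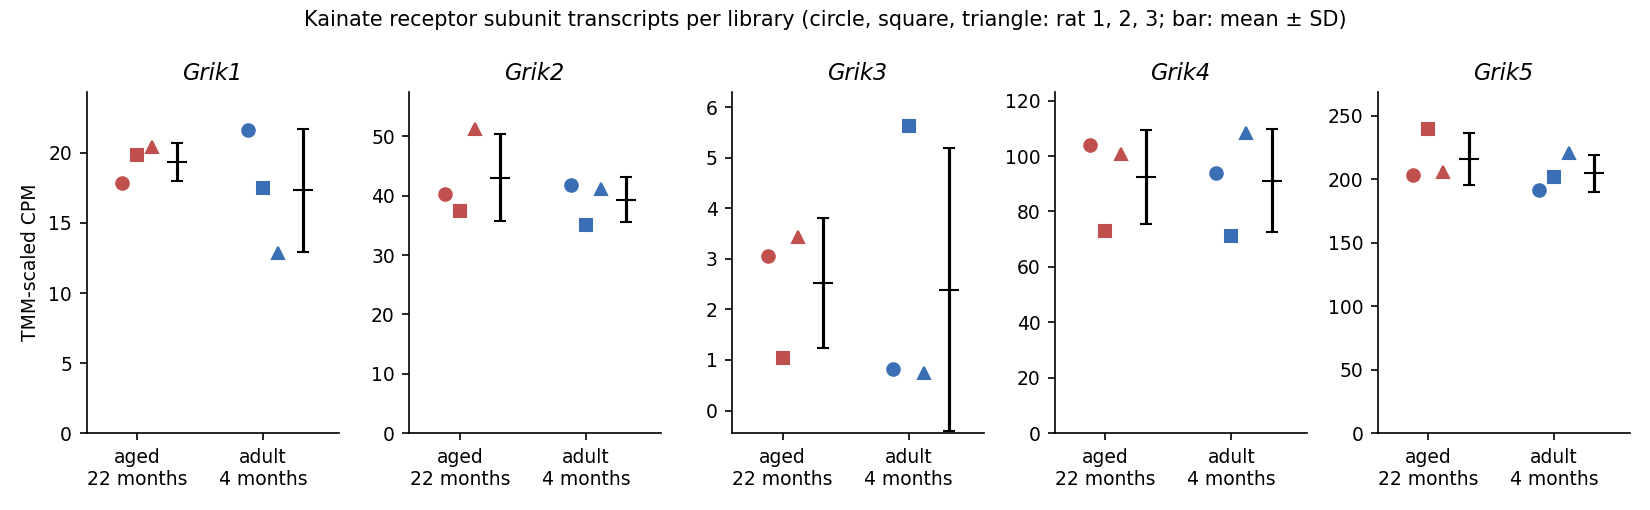
Level of each subunit transcript in each library, in TMM-scaled CPM, with aged rats on the left and adult rats on the right of each panel, and the mean with its SD over 3 rats beside the points. The groups overlap in every panel, and Grik3 has 1 adult rat at 5.63 CPM with the other 2 below 1 CPM.

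Per unit of transcript length, Grik5, which encodes a high-affinity subunit, was the most abundant. Levels are compared between genes in FPKM, fragments scaled to the gene length used by the authors and to the library total. Grik5 averaged 57.5 ± 5.39 FPKM in aged and 53.7 ± 3.07 FPKM in adult rats (SD, n = 3 each). Grik4 averaged 16.2 ± 3.07 FPKM in aged and 15.7 ± 2.97 FPKM in adult rats. Grik2 averaged 14.2 ± 2.82 FPKM in aged and 12.8 ± 1.11 FPKM in adult rats. Grik4 and Grik2 therefore lay within each other's spread, although the ratio of Grik4 to Grik2 was above 1 in every library, at 1.03 to 1.37 in aged and 1.08 to 1.40 in adult rats. Grik1 averaged 3.20 ± 0.306 FPKM in aged and 2.84 ± 0.752 FPKM in adult rats. Grik3 averaged 0.568 ± 0.297 FPKM in aged and 0.537 ± 0.634 FPKM in adult rats. The order Grik5, then Grik4 and Grik2, then Grik1, then Grik3 was the same at both ages, and apart from the Grik4 and Grik2 pair no neighbours in it overlapped in any library. Among all genes tested, Grik5 stood between the 88.6th and 90.5th percentile of FPKM in the 6 libraries and Grik3 between the 2.15th and 17.0th.

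The mix of subunits overlapped between the ages as well. GluK4 and GluK5 transcripts together made up 81.0%, 82.9% and 77.5% of the summed FPKM of the 5 subunits in aged rats 1 to 3, against 79.3%, 80.9% and 83.0% in adult rats 1 to 3. Aged rat 3 had the lowest share and adult rat 3 the highest, and the ranges overlapped. Grik5 alone held 58.6% to 69.1% in aged and 60.0% to 65.7% in adult rats, with its largest share in aged rat 2. The principal channel-forming subunit, Grik2, held 13.3% to 18.1% in aged and 14.1% to 16.2% in adult rats. These shares depend on the gene lengths, which ran from 3058 bases for Grik2 to 6093 bases for Grik1. No test was made on them, since they are sums over genes chosen together.

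**Figure D2:**
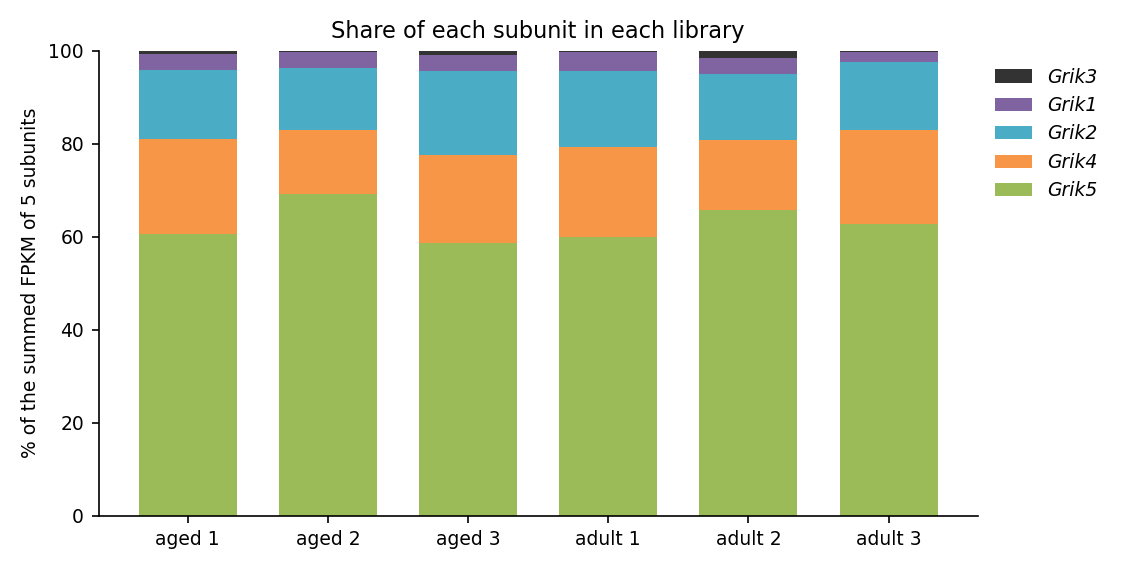
Share of each subunit in the summed FPKM of the 5 kainate receptor genes (vertical axis, percent), with 1 bar per library and aged rats left of adult rats. Grik5 fills 58.6% to 69.1% of every bar and Grik3 at most 1.55%.

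Kainate receptor genes summed to 86.8, 91.6 and 96.3 FPKM in aged rats 1 to 3, against 84.3, 82.1 and 90.3 FPKM in adult rats 1 to 3. The 2 highest libraries were from aged rats, and the groups overlapped. Set beside AMPA, NMDA and delta receptor genes, the kainate genes held 18.4% to 24.6% of ionotropic glutamate receptor FPKM in aged rats and 19.1% to 23.4% in adult rats. Their share was highest in aged rat 2, where the summed AMPA receptor level was 152.4 FPKM, below the 228.7 and 235.0 FPKM of the other 2 aged rats and the 155.7 to 208.5 FPKM of the adult rats.

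Upstream sequence is shown for Grik5, the most abundant and least variable of the 5, and Grik3, the least abundant and most variable. Each is the 100 bases before the transcript start in the RefSeq table of build GRCr8, which held all 5 genes, with each CG dinucleotide in capitals. The Grik5 stretch is chr1:89794910-89795009 on the minus strand and the Grik3 stretch is chr5:143052342-143052441 on the plus strand.
Grik5: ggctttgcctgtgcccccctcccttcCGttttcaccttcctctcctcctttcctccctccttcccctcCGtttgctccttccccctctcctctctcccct
Grik3: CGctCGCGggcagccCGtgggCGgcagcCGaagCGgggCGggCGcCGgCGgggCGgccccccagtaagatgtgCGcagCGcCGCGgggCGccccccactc

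The stretch of Grik5 is rich in pyrimidines, with 2 CG dinucleotides, and that of Grik3 is rich in CG, with 17. CG reads the same on both strands and was counted without overlap. In the full window of 300 bases around the start, Grik3 held 49 CG dinucleotides at 82.3% G and C, and 0.867% of the 33469 promoters in the table held as many. Grik1 held 12, Grik5 11, Grik2 8 and Grik4 4 in the same window, where the median of all promoters was 7. The share of promoters with at least as many was 37.1% for Grik1, 39.0% for Grik5, 47.6% for Grik2 and 69.3% for Grik4. Methylation and factor binding were not measured, so these counts describe the sequence only.

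Grik1 encodes GluK1, a channel-forming subunit. It stood at 17.8, 19.8 and 20.4 CPM in aged rats 1 to 3, against 21.7, 17.5 and 12.9 CPM in adult rats 1 to 3. Adult rat 1 was highest and adult rat 3 lowest, so the adult values enclosed all the aged ones. The log2 fold change was 0.16 ± 0.21 (SE), with a 95% interval of -0.31 to 0.63, and the adjusted p was 1.00 by edgeR's quasi-likelihood test. Single adult rats moved the estimate in both directions: without adult rat 3 the log2 fold change was -0.01, and without adult rat 1 it was 0.36. The 10 interneuron markers summed to 1301, 1501 and 993 CPM in aged rats 1 to 3, against 1307, 1108 and 944 CPM in adult rats 1 to 3. That sum was lowest in adult rat 3 as well, but was second lowest in aged rat 3, where Grik1 was second highest. Its members differed. Gad1, Gad2, Slc32a1, Vip, Lhx6 and Reln were lowest in adult rat 3, and Sst and Cck were not. Pvalb was highest there, at 129.3 CPM, and Npy added 0 to every sum. The part of interneuron content in the Grik1 values was not tested. In the GRCr8 annotation Grik1 overlaps LOC102549158 and LOC108352301. Reads were mapped to Rnor_6.0, and whether this overlap or those given below held in the counting annotation was not checked. If so, without a stated strand setting some reads of these genes may be counted for one another.

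Grik2 encodes GluK2, the channel-forming subunit of mossy fibre receptors. It stood at 40.3, 37.4 and 51.3 CPM in aged rats 1 to 3, against 41.9, 35.0 and 41.2 CPM in adult rats 1 to 3. Aged rat 3 was above every other library, and the other 5 lay close together. The log2 fold change was 0.13 ± 0.15 (SE), with a 95% interval of -0.22 to 0.48 (edgeR adjusted p = 1.00). Without aged rat 3 it was -0.02. Grik2 overlaps 2 pseudogenes in the GRCr8 annotation, LOC120099039 and LOC100910099. The GluK2 message is also edited at its pore codon, which counts per gene do not show.

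Grik3 encodes GluK3, a channel-forming subunit with low glutamate sensitivity. Its read counts were 46, 13 and 55 in aged rats 1 to 3, against 12, 89 and 11 in adult rats 1 to 3. On the CPM scale these were 3.06, 1.04 and 3.44 CPM in aged rats, against 0.820, 5.63 and 0.733 CPM in adult rats. Aged rat 2 and adult rats 1 and 3 thus lay near 1 CPM, and aged rats 1 and 3 and adult rat 2 at 3.06 CPM or above. Both the highest and the lowest value were among the adults. The 95% Poisson interval of the count in adult rat 2, 71.5 to 109.5, lay apart from the interval of 5.49 to 19.7 in adult rat 3, so counting error alone does not span these 2 rats, chosen here as the highest and lowest adults. The highest library was 7.67 times the lowest, and the spread of Grik3 over the 6 libraries on the log2 scale was at least as large as that of 97.9% of all genes tested. The same measure placed Grik5 at 12.4%, Grik2 at 36.9%, Grik4 at 57.3% and Grik1 at 57.5%. Low-count genes vary more, and the variation fitted for genes at the level of Grik3 was 40.5%, against 16.2% at the level of Grik5. The part of low counts in the Grik3 spread was not tested. Grid1, a delta receptor gene with 119 to 393 reads in a library, was also highest in aged rats 1 and 3 and adult rat 2. Gria2 and Grin2a were not highest in those libraries.

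The log2 fold change of Grik3 was 0.08 ± 0.81 (SE), and its 95% interval of -1.79 to 1.94 spans from 0.290 to 3.83 as a ratio of aged over adult, so changes of either sign within those bounds are not excluded. Single libraries set its direction. It was 1.69 without adult rat 2 (unadjusted p = 0.0263 and adjusted p = 0.923 by edgeR), -0.34 without adult rat 3, -0.32 without adult rat 1, -0.22 without aged rat 3, -0.07 without aged rat 1 and 0.44 without aged rat 2. limma-voom gave 0.58. Grik3 overlaps the lncRNA genes LOC134486989 and LOC108351031 in the GRCr8 annotation.

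**Figure D3:**
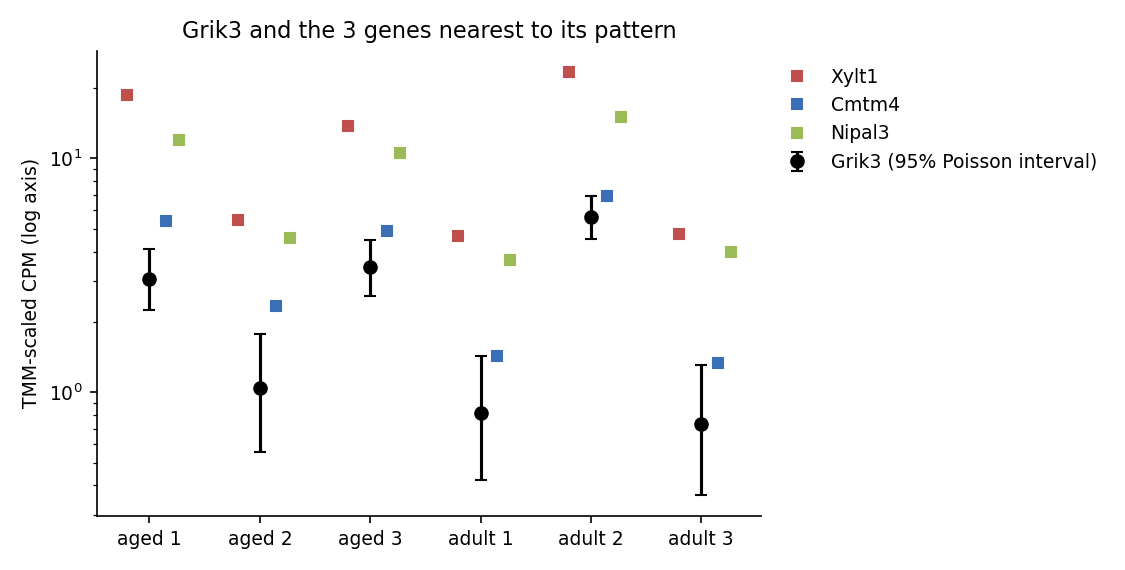
Grik3 in each library (black, with the 95% Poisson interval of its count) and the 3 genes with the most similar pattern, in TMM-scaled CPM on a log axis, with aged rats left of adult rats. Aged rats 1 and 3 and adult rat 2 stand above aged rat 2 and adult rats 1 and 3 for all 4 genes.

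Grik4 encodes GluK4, a high-affinity subunit whose transcript is known from CA3 pyramidal and dentate granule cells. It stood at 103.8, 72.9 and 100.8 CPM in aged rats 1 to 3, against 94.0, 71.2 and 108.4 CPM in adult rats 1 to 3. Aged rat 2 and adult rat 2 were low and the other 4 rats lay at 94.0 CPM or above, at both ages. The log2 fold change was 0.02 ± 0.19 (SE), with a 95% interval of -0.42 to 0.47 (edgeR adjusted p = 1.00). It was -0.05 without aged rat 1, -0.04 without aged rat 3 and -0.13 without adult rat 2. The 6 CA3 markers summed to 862, 493 and 684 CPM in aged rats 1 to 3, against 663, 625 and 1021 CPM in adult rats 1 to 3. The 6 libraries ran in the same order for that sum as for Grik4, from adult rat 3 at the top through aged rat 1, aged rat 3 and adult rat 1, except that the lowest 2 were exchanged. The markers did not all share that order. Cpne4 and Homer3 each ran in the order of the sum, whereas Bok, Iyd and Dkk3, the largest part of the sum, did not. Socs2 was lowest in aged rat 1 at 7.52 CPM, and next lowest in adult rat 3 at 7.93 CPM. The 8 dentate granule cell markers summed to 498, 439 and 518 CPM in aged rats, against 392, 422 and 704 CPM in adult rats, again highest in adult rat 3. The part of field content in the Grik4 values was not tested. Grik4 overlaps the pseudogene Rpl10-ps5 in the GRCr8 annotation.

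Grik5 encodes GluK5, the other high-affinity subunit. It stood at 203, 239.9 and 206 CPM in aged rats 1 to 3, against 191, 202 and 220.5 CPM in adult rats 1 to 3. The 6 values lay within 1.25-fold of each other, with aged rat 2 highest and adult rat 1 lowest. The log2 fold change was 0.08 ± 0.12 (SE), and its 95% interval of -0.20 to 0.36 runs from 0.868 to 1.29 as a ratio of aged over adult (edgeR adjusted p = 1.00). It was above 0 whichever library was left out, at 0.01 to 0.14, lowest without aged rat 2. No gene overlaps Grik5 in the GRCr8 annotation. Grik5 therefore has the narrowest interval of the 5 subunits and Grik3 the widest.

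**Figure D4:**
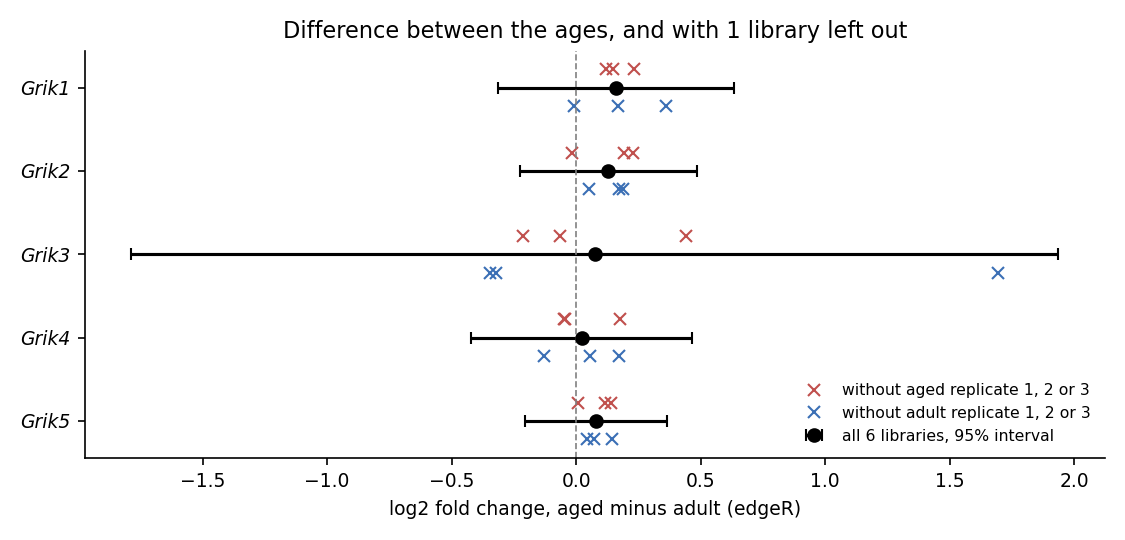
Log2 fold change of each subunit, aged minus adult, from edgeR (black point, 95% interval) and with 1 aged (red crosses) or 1 adult library (blue crosses) left out. All 5 intervals include 0, and the crosses of Grik3 run from -0.34 to 1.69.

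Genes with the pattern most like each subunit were those with the smallest root mean square difference in log2 CPM over the 6 libraries, each gene centred on its own mean, among 13105 candidates. With 6 libraries and this many candidates, close matches arise for any gene. For Grik1 they were Dlx1, a homeobox transcription factor of forebrain interneurons (difference 0.063), Sugct (0.066) and Rassf8 (0.067), where the median of all candidates was 0.320. For Grik2 they were Osbpl6 (0.029), Rbbp6 (0.042) and Lrrfip1 (0.042), against a median of 0.269. For Grik3 they were Xylt1, a xylosyltransferase that starts proteoglycan sugar chains (0.220), Cmtm4 (0.244) and Nipal3 (0.287), against a median of 1.08. Xylt1 stood at 18.7, 5.46 and 13.7 CPM in aged rats 1 to 3, against 4.64, 23.5 and 4.73 CPM in adult rats 1 to 3, with the same 3 libraries high as for Grik3. For Grik4 they were Kbtbd8 (0.059), Ptgr1 (0.076) and Fam206a (0.078), against a median of 0.315. For Grik5 they were Mettl14, a subunit of the RNA methyltransferase that writes m6A (0.025), Hdac3, a histone deacetylase (0.029), and Tmem43 (0.029), against a median of 0.227. Among the subunits themselves, this difference was smallest between Grik2 and Grik4 (0.177) and largest between Grik3 and Grik4 (1.14). It depends on the spread of each gene as well as on its pattern. The root mean square deviation from the gene's own mean was 1.05 for Grik3 and 0.170 for Grik2.

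For partners of kainate receptors no difference between the ages was detected either. The list held auxiliary subunits, synaptic organisers, scaffolds, kinases, SUMO pathway and RNA editing enzymes, and all 25 of its genes were tested. Of these, 0 were called higher and 0 lower (edgeR quasi-likelihood, Benjamini-Hochberg), 0 had an unadjusted p under 0.05, and DESeq2 called 0, where the shares over all genes were 0%, 3.45% and 0.191%. The estimates were above 0 in 15 and below 0 in 10, with a median of 0.04, against 49.5% above 0 and a median of -0.0022 over all genes.

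Neto1, an auxiliary subunit that slows kainate receptor currents, stood at 118.8, 57.9 and 105.8 CPM in aged rats 1 to 3, against 99.0, 79.5 and 93.0 CPM in adult rats 1 to 3. It was lowest in aged rat 2 and adult rat 2, the libraries where Grik4 was lowest too. Its relative Neto2 stood at 11.3, 7.07 and 7.89 CPM in aged rats, against 4.23, 11.3 and 4.60 CPM in adult rats. Neto2 had its highest adult value in adult rat 2, as Grik3 did. The log2 fold changes were 0.06 ± 0.25 for Neto1 and 0.38 ± 0.41 for Neto2 (SE).

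C1ql2 and C1ql3 are secreted proteins of mossy fibre terminals that gather kainate receptors. C1ql2 stood at 71.6, 73.7 and 83.3 CPM in aged rats 1 to 3, against 64.0, 68.0 and 175.5 CPM in adult rats 1 to 3. A single library, adult rat 3, stood apart, and C1ql2 is itself 1 of the 8 dentate granule cell markers whose sum was highest there. Prox1, Dsp, Tdo2, Rfx3 and Stxbp6 were also highest in adult rat 3, whereas Calb1 and Pdzd2 were not. Pdzd2 stood at 8.26 CPM in that library, below all 3 aged rats. Calb1 stood at 134.8 CPM there, and every adult rat, at 132.6 to 138.7 CPM, was below all 3 aged rats. Groups did not overlap for 7.56% of all genes. C1ql3 stood at 60.4, 32.8 and 42.1 CPM in aged rats, against 27.4, 40.1 and 50.7 CPM in adult rats, with overlap. Adarb1, the enzyme that edits the GluK1 and GluK2 pore codons, averaged 156.3 ± 11.9 CPM in aged and 159.2 ± 26.5 CPM in adult rats.

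The 4 other partners with the smallest p were Grip1, Nrxn3, Stx1a and Kif17. Grip1, a PDZ scaffold that binds kainate and AMPA receptor subunits, averaged 30.4 ± 1.41 CPM in aged and 26.5 ± 2.50 CPM in adult rats, with an unadjusted p of 0.170 by edgeR, the smallest on the list. Nrxn3, a presynaptic neurexin, averaged 145.0 ± 1.30 CPM in aged and 133.8 ± 13.9 CPM in adult rats. Stx1a, a syntaxin of the vesicle fusion machinery, averaged 141.1 ± 35.5 CPM in aged and 122.4 ± 37.7 CPM in adult rats. Kif17, a kinesin of dendrites, averaged 18.2 ± 5.71 CPM in aged and 20.8 ± 2.37 CPM in adult rats. Values of aged and adult rats overlapped for all 4.

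Of the 13 genes of the other ionotropic glutamate receptors, 12 were tested and 0 were called by edgeR or DESeq2, with 1 at an unadjusted p under 0.05 by edgeR, where the shares over all genes were 0% by edgeR, 0.191% by DESeq2 and 3.45% at that unadjusted p. Their estimates were above 0 in 11 and below 0 in 1, with a median of 0.14, against 49.5% above 0 and a median of -0.0022 over all genes. The exception was Grin2c, the GluN2C subunit of NMDA receptors, which stood at 100.0, 109.9 and 104.8 CPM in aged rats, against 118.6, 142.0 and 144.0 CPM in adult rats. Of the 12 genes tested, Grin2c was the only gene whose groups did not overlap, where the share over all genes was 7.56%. Its log2 fold change was -0.36 ± 0.12 (SE) with an unadjusted p of 0.0161 and an adjusted p of 1.00 by edgeR. The next smallest p was that of Gria4, the GluA4 subunit of AMPA receptors, which averaged 73.1 ± 1.83 CPM in aged and 66.5 ± 11.6 CPM in adult rats.

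**Figure D5:**
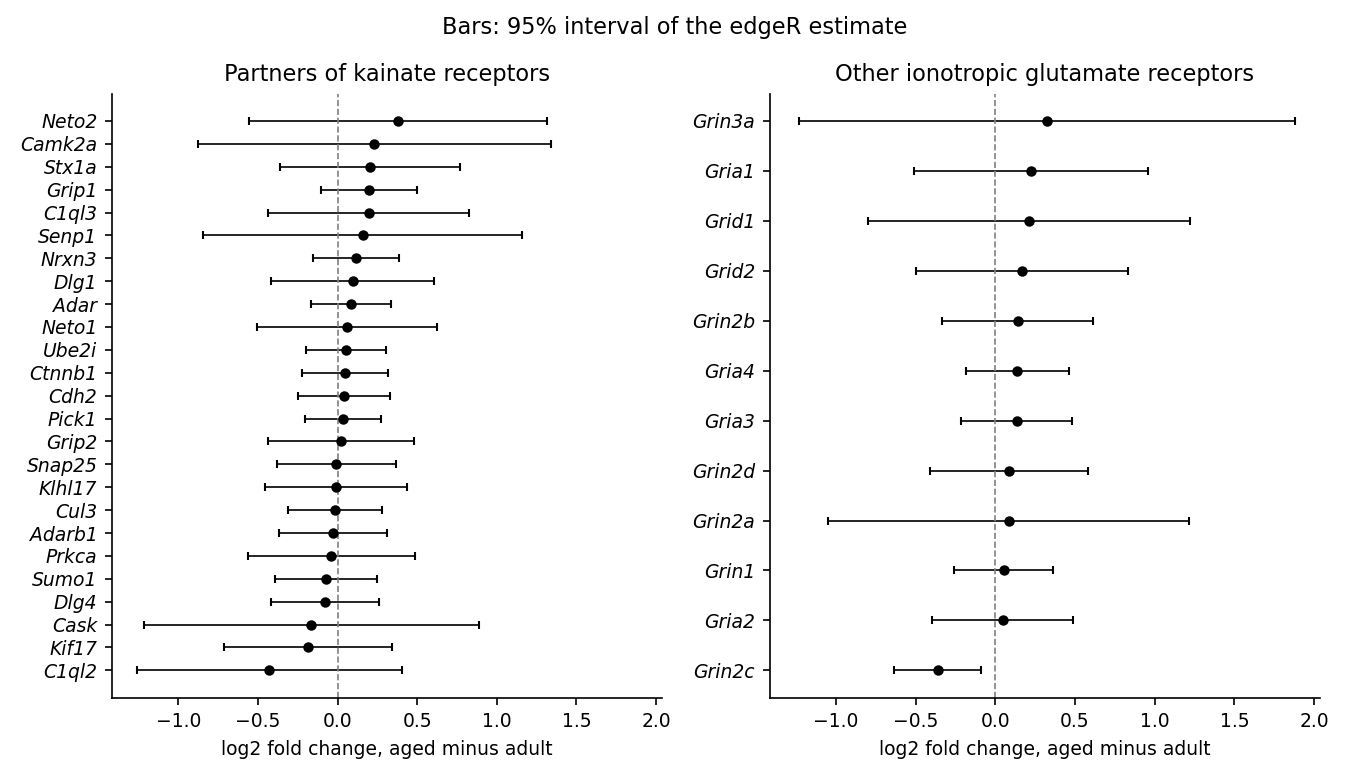
Log2 fold change, aged minus adult, with the 95% interval of the edgeR estimate, for 25 partners of kainate receptors (left) and 12 other ionotropic glutamate receptor subunits (right), each sorted by its estimate. Grin2c, at -0.36, is the gene whose interval does not include 0.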

How the data were processed

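Raw counts per gene symbol were deposited by the authors in a table with a column for each of 6 libraries. The authors also deposited FPKM values, each equal to the count over 1 length per gene and the sum of the library, within a relative error of 1.8e-07. Reads were mapped to Rnor_6.0, per the submitters' processing notes, and no source used here names the aligner, the counting program, its annotation or its strand setting.

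Genes were filtered with filterByExpr, scaled by TMM and tested as aged minus adult with edgeR 4.0.16 (quasi-likelihood F test, two-sided, age as the only term) in R 4.3.3, with Benjamini-Hochberg adjustment over all 14588 genes tested and a threshold of 0.05. Standard errors were derived from the F statistic, and 95% intervals from its degrees of freedom. Poisson intervals cover counting error only. Log2 CPM for patterns used a prior count of 2.

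The subunits and gene lists were chosen with earlier results of these data known. The text names all 5 subunits, Neto1, Neto2, C1ql2, C1ql3 and Adarb1, the 4 other partners and the 2 other receptor subunits with the smallest p, and for each subunit the 3 genes of most similar pattern with a mean of at least 1 CPM and no locus identifier as symbol. Other settings were RLE, upper-quartile and library total scaling, other filters, robust fitting, DESeq2 1.42.0, limma 3.58.1 (voom and log2 FPKM), the replicate number as a block and leaving out each library. Figures were drawn with matplotlib 3.10.9.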

Additional observations from a re-analysis of the deposited data

How the results depend on the processing

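Under all 18 alternatives, 0 of the 5 subunits were called, and the estimate of Grik5 stayed above 0. Reversals of sign came only from leaving out 1 library and concerned estimates that were not called, so leaving out libraries moved Grik1 between -0.0077 and 0.36, Grik2 between -0.017 and 0.23, Grik3 between -0.34 and 1.69, Grik4 between -0.13 and 0.18 and Grik5 between 0.01 and 0.14. The cause was not tested. Over all genes, edgeR called 0, DESeq2 called 32 (13 higher and 19 lower) and limma on log2(FPKM + 1) called 2, LOC100361898 and Polr2i, named for their calls. Leaving out single libraries gave 0 to 1 called genes, with Mff, Tma7 and LOC103690005 called without adult rat 1, 2 and 3 in turn, and 405 to 773 genes at an unadjusted p under 0.05, against 503 with all 6 libraries and the highest number without adult rat 2. With the replicate number as a block, 0 genes were called, and the log2 fold changes were 0.19 for Grik1, 0.12 for Grik2, 0.66 for Grik3, 0.02 for Grik4 and 0.08 for Grik5. The labels do not state that equal numbers pair the rats. The deviations of same-numbered aged and adult libraries from their group means correlated at -0.015, -0.057 and 0.087 for numbers 1 to 3. Those of unlike-numbered libraries correlated at -0.124 to 0.118. With 3 rats per group, these values cannot decide whether the rats were paired. Shares of subunits in CPM, without division by length, put Grik5 at 57.9%, Grik4 at 24.8%, Grik2 at 11.5%, Grik1 at 5.18% and Grik3 at 0.672% in aged rats, against 57.7%, 25.5%, 11.1%, 4.94% and 0.708% for these genes in adult rats. In FPKM Grik4 held 17.7% in aged and 18.3% in adult rats, and Grik2 held 15.4% in aged and 14.9% in adult rats, so the closeness of Grik4 and Grik2 rests on the division by length. Grik3 had the fewest reads of the 5 subunits, 11 to 89 in a library.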
